A study of Mus musculus with 6 samples.

Results

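The Wnt module described here is the set of genes for the secreted Wnt ligands, their receptors and coreceptors, the secreted antagonists, the R-spondin axis that sets receptor number, and a few intracellular components. Members were found by a rule on gene symbols that reads no measured value, and 52 of the 17556 genes listed in the deposited table belong to the module. They comprise 17 ligands, 12 receptors, 9 secreted antagonists, 8 members of the R-spondin axis and 6 intracellular members. Expression was measured by bulk RNAseq in left ventricles collected 4 days post injury (dpi) from mice aged 6 to 10 weeks. All mice carried floxed Yap (both alleles, the gene Yap1) and floxed Wwtr1 (one allele), and all underwent permanent ligation of the left anterior descending artery, which causes a myocardial infarction (MI). All were then fed tamoxifen citrate from the time of surgery. The 3 Cre positive mice also carried MerCreMer, a Cre recombinase that tamoxifen activates, at the endogenous Periostin (Postn) promoter. Their 3 Cre negative siblings had wild-type Periostin. Uninjured ventricles and ventricles without tamoxifen were not part of the comparison.

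The model limits what these values can show. Cre acts only in cells that express Postn, mainly the myofibroblasts of the injured heart, whereas RNA came from the whole ventricle and thus from all of its cells. In such bulk RNA, fewer cells of a type and less RNA per cell cannot be told apart. The targeted genes did not differ detectably, with log2 fold changes (Cre positive over Cre negative) of 0.03 for Yap1 (SE, standard error, 0.09, with an adjusted p of 0.935 in edgeR's quasi-likelihood test) and 0.05 for Wwtr1 (SE 0.08, edgeR adjusted p = 0.876). Postn, the locus of MerCreMer, had a log2 fold change of −0.66 (SE 0.27, edgeR adjusted p = 0.714), and −0.94 without Cre negative replicate 1 (edgeR adjusted p = 0.0182). Estimated counts summed to between 13177888 and 14827579 per ventricle, and 0 counts in a ventricle leave room for a true value of up to 3. The ventricle of Cre negative replicate 1 stood apart from the rest. In pairwise comparison with the other 5 it gave a chi-square of 42.5 to 65.6 per gene, where 1 is sampling noise, and pairs among the other 5 gave 7.86 to 16.5. Cardiomyocyte, fibroblast and macrophage markers were present at high levels in all 6 ventricles, as the labelled tissue requires, but in that ventricle the 8 fibroblast markers summed to 4254 TPM against 5555 to 6999 in the others. Among them Col1a1, Col1a2, Lum, Tcf21 and Dpt were lowest there (Dpt by little, 159.1 against 159.9 TPM), and Dcn, Gsn and Pdgfra were not. Without Col1a1 and Col1a2, which dominate the sum, the other 6 summed to 1892 TPM there and to 1597 to 2144 TPM elsewhere. TPM is the deposited level, scaled for gene length and library size, that allows genes to be compared with each other. A plot further on gives the fold change of each tested member with and without it. The labels do not say more of how the replicates were obtained than that they are separate samples, so p-values measure the spread between these samples.

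Wnt ligands are lipid-modified secreted proteins that act over short distances. In the canonical branch, a ligand joins a Frizzled receptor to the coreceptor Lrp5 or Lrp6, the Axin-based destruction complex is inhibited, and beta-catenin accumulates and activates genes through TCF/LEF factors. Noncanonical ligands such as Wnt5a and Wnt11 act through Frizzled and Ror receptors on cell polarity and movement. Sfrp and Wif1 proteins bind ligands, Dkk1 and Dkk2 block the coreceptors, and R-spondins with Lgr4, Lgr5 or Lgr6 prevent the ubiquitin ligases Znrf3 and Rnf43 from removing Frizzled from the cell surface. Yap and Taz (the product of Wwtr1) exchange signals with this pathway and act on DNA through TEAD factors. In the injured heart, the epicardium, fibroblasts and endothelium are known sources and targets of Wnt signals.

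Because Yap and Wwtr1 work through TEAD factors and canonical Wnt signals through TCF/LEF factors, the promoters of the members were read for both core motifs. The RefSeq promoter table (GRCm38.p6) held 42 promoters of 33 members, each from 250 bases before to 50 bases after a transcription start. The TCF/LEF core (CTTTGAT or CTTTGAA, either strand) was found in 3 of these 42 promoters (7.14%), and in 8.65% of all 32851 promoters in the table. Those 3 belonged to Wnt11, Wnt5b and Dkk1. The TEAD core (GGAATG, either strand) was found in 2 of the 42 (4.76%) and in 14.7% of all promoters, and these belonged to Lgr4 and Wnt5b. No match of one motif overlapped a match of the other in the members' promoters. A match is only a run of letters, and the absence of one says only that these letters are not in the window. Shown here are the 250 bases before the start for Wnt11, which holds a TCF/LEF core, and for Lgr4, which holds the TEAD core at 2 places, with the motif letters in capitals as they read on the gene's strand. Wnt4, Rspo1 and Axin2 are shown because their levels varied together from ventricle to ventricle (described further on), and neither motif was found in them. The Axin2 window precedes an internal start and lies inside the annotated gene. All 5 genes lie on the plus strand and the sequences run 5′ to 3′.
Wnt11, chr7:98834862-98835111: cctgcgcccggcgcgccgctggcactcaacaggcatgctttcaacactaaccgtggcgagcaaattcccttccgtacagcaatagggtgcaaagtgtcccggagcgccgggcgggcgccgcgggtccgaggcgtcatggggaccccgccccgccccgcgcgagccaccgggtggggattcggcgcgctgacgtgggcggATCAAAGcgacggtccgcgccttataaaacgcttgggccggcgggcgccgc
Lgr4, chr2:109917397-109917646: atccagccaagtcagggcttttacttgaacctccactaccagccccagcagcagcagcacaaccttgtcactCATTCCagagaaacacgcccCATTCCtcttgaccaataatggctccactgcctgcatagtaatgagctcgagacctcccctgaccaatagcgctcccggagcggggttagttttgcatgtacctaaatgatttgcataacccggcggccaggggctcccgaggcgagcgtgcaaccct
Wnt4, chr4:137277385-137277634: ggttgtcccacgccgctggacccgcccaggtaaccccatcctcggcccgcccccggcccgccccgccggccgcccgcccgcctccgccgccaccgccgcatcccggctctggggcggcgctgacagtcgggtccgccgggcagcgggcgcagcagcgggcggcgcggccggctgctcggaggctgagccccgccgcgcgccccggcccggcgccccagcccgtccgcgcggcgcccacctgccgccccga
Rspo1, chr4:124986180-124986429: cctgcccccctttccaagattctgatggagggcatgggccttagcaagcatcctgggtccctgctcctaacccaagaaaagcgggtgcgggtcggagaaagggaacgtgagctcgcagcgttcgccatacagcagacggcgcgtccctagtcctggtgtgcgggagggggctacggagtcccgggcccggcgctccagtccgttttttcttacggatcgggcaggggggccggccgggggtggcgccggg
Axin2, chr11:108920099-108920348: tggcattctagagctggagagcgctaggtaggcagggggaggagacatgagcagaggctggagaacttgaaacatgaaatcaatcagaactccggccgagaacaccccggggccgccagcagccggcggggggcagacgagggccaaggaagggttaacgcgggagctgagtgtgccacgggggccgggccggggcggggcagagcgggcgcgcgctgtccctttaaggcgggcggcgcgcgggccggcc
The core of Wnt11 began 51 bases before the start and was read as ATCAAAG, the reverse complement of CTTTGAT. The cores of Lgr4 began 178 and 158 bases before the start, both as CATTCC. The promoters of the members were rich in G and C, with a median of 67.0% against 52.7% for all promoters in the table, and 29 of the 42 were above 60% G and C (28.6% of all promoters). That of Wnt4 was the richest at 84.3%.

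Of the 52 members, 38 had enough counts to be tested and 35 had at least 10 counts in all 6 ventricles. The other 14 stayed low. None of the 38 differed between the genotypes by edgeR's quasi-likelihood test with Benjamini-Hochberg adjustment over all 13817 genes tested. Of all tested genes 0.00724% were called, which is a single gene outside the module (Gbp2b). Adjusted p-values of the members ran from 0.714 to 0.999. Without adjustment, 0 members had p under 0.05 where 5.83% of all genes did, and the smallest was 0.089 for Lgr6. DESeq2's Wald test likewise called 0 members. By the fitted values, 25 members were higher and 13 lower in the Cre positive ventricles (65.8% higher, against 51.2% of all genes), with a median log2 fold change of 0.10 against 0.01 for all genes. When 1 ventricle was left out, 20 to 25 of the 38 were higher and the median ran from 0.01 to 0.17, with the lowest of both without Cre negative replicate 3. Without Cre negative replicate 1, 25 were higher and the median was 0.09. With limma on log2(TPM + 1) and on log2(TPM + 0.1), 32 and 31 were higher. The precision differed among the members, as the plot of fold changes shows. For 23 of the 38 the 95% confidence interval lay within a 2-fold change either way, which was so for 85.1% of all genes. For the other 15 a change of 2-fold or more in at least one direction cannot be told from none.

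**Figure D1:**
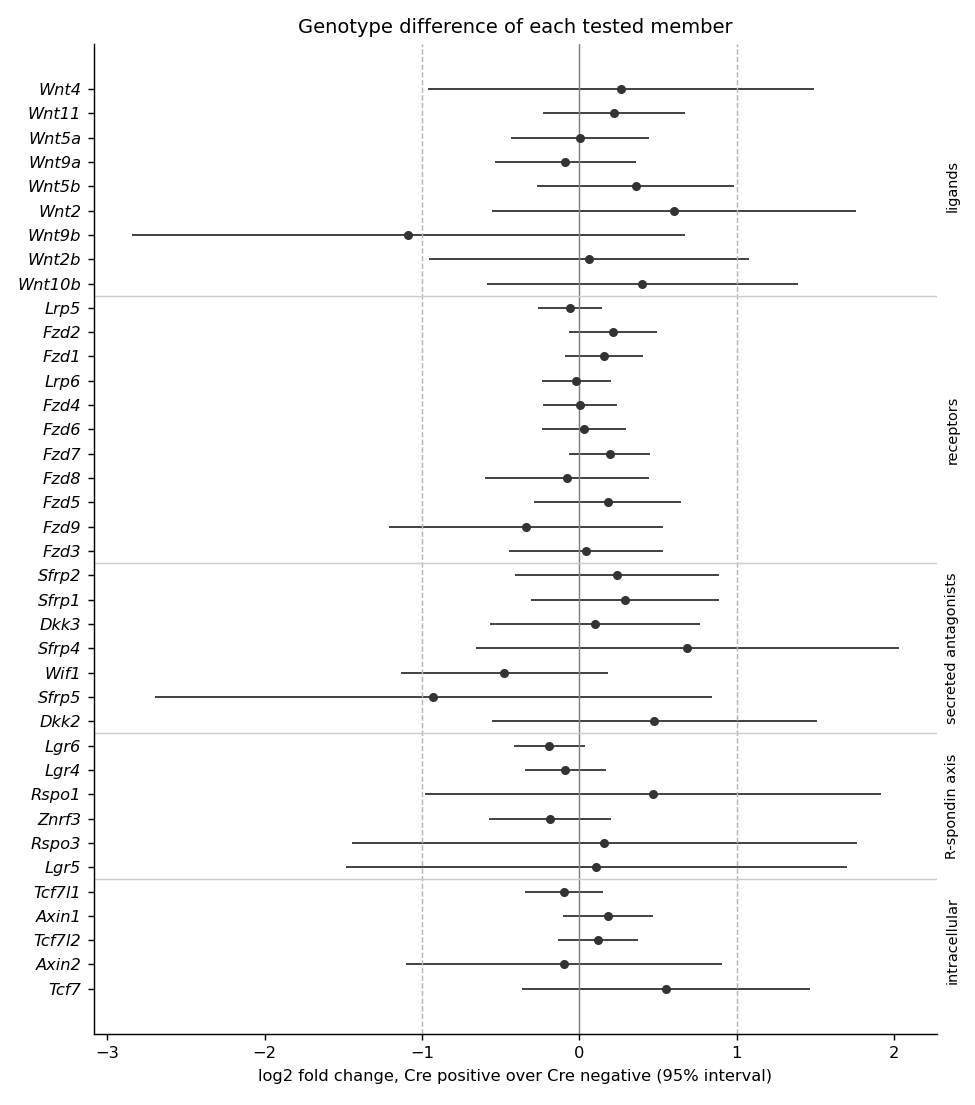
Log2 fold change (x axis, Cre positive over Cre negative, edgeR) of the 38 tested members, grouped by role, with bars for the 95% interval and dashed lines at a 2-fold change. All 38 intervals include 0, and 10 of the 11 receptors have intervals within a 2-fold change.

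The secreted antagonists were the most abundant class, though barely so in Cre negative replicate 1 (32.74% of module TPM against 32.67% for receptors). In the Cre negative ventricles the 9 antagonists took 40.07 ± 6.38% of all TPM of the module (SD, n = 3) and in the Cre positive ventricles 42.97 ± 0.94% (SD, n = 3). Receptors came next with 31.27 ± 1.23% and 29.81 ± 2.19%, then intracellular members with 14.23 ± 0.85% and 13.42 ± 0.49%. The 17 ligands together took only 8.11 ± 3.35% and 8.24 ± 1.63%, and the R-spondin axis 6.33 ± 1.74% and 5.55 ± 0.26%. No class share differed by more than the spread between ventricles. The module as a whole summed to 375.8, 493.5 and 480.4 TPM in Cre negative replicates 1, 2 and 3 and to 523.4, 502.6 and 546.6 TPM in Cre positive replicates 1, 2 and 3. These sums did not overlap between the genotypes. TPM moves with the other genes of a library (the median of all genes was itself 0.11 higher in the Cre positive ventricles on the log2(TPM + 1) scale), so levels are given in TPM and differences are tested on counts.

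**Figure D2:**
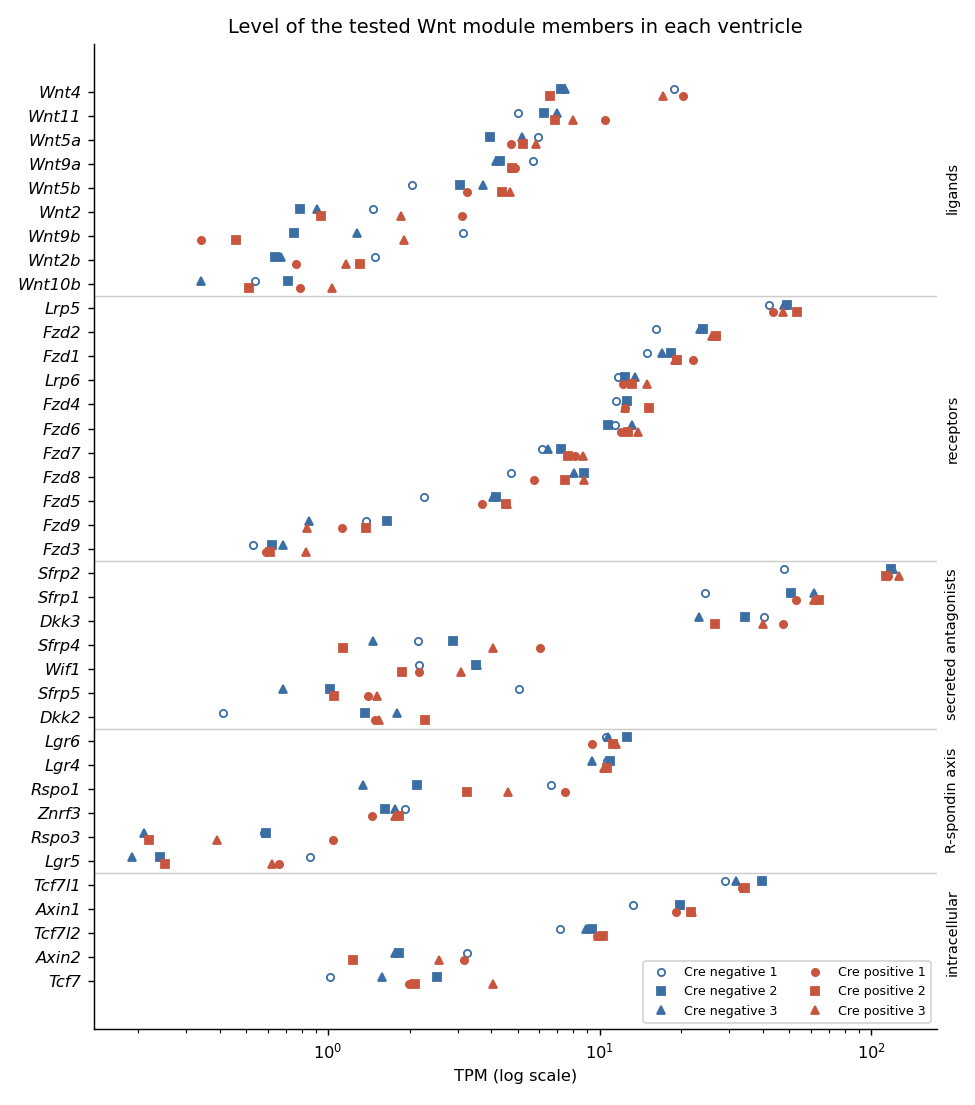
TPM (x axis, log scale) of the 38 tested members in each of the 6 ventricles, with blue symbols for Cre negative, red for Cre positive and an open circle for Cre negative replicate 1. Sfrp2 had the highest mean, 107 TPM, and the ligand with the highest mean, Wnt4, reached 12.9 TPM.

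Among the ligands, 9 of 17 were tested, and 7 were higher and 2 lower in the Cre positive ventricles with none called. Wnt4 (gene 22417, chr4:137277635-137299501 on GRCm38.p6), which signals in both branches and drives mesenchymal to epithelial transition in the kidney, had the highest level. It was at 18.85, 7.23 and 7.43 TPM in Cre negative replicates 1, 2 and 3 and at 20.29, 6.59 and 17.15 TPM in Cre positive replicates 1, 2 and 3. Thus 3 ventricles, 1 Cre negative and 2 Cre positive, held more than 2 times the level of the other 3, and the genotypes overlapped. The log2 fold change was 0.26 (SE 0.53, edgeR adjusted p = 0.890), and it was 0.95 without Cre negative replicate 1 and −0.08 without Cre positive replicate 1. The estimated counts of Wnt4 were not whole numbers in any ventricle, which arises when some reads are shared with another gene.

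Wnt11 (gene 22411, chr7:98835084-98854747), a noncanonical ligand of heart development, was at 5.02, 6.25 and 6.98 TPM in the Cre negative and at 10.50, 6.85 and 8.0 TPM in the Cre positive ventricles. By TPM, only Cre positive replicate 2 lay within the range of the siblings. By normalized counts that ventricle was the lowest of the 6, at 106 against 113 to 123 in the siblings. On counts the difference was smaller, with a log2 fold change of 0.22 (SE 0.19, edgeR adjusted p = 0.751) that was 0.04 without Cre positive replicate 1. Wnt5a (gene 22418, chr14:28504543-28527448), the prototype of the noncanonical ligands, was at 5.94, 3.95 and 5.17 TPM and at 4.70, 5.21 and 5.84 TPM. Its groups overlapped throughout and its log2 fold change was 0.00 (SE 0.19, 95% interval −0.44 to 0.44), with −0.14 to 0.21 when 1 ventricle was left out. Its paralog Wnt5b (gene 22419, chr6:119432531-119544824) was at 2.03, 3.05 and 3.72 TPM and at 3.25, 4.37 and 4.68 TPM. The Cre positive values were shifted upwards with an overlap at the middle, and the log2 fold change was 0.36 (SE 0.27, edgeR adjusted p = 0.724), or 0.16 without Cre negative replicate 1 and 0.59 without Cre negative replicate 3.

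Wnt9a, a canonical ligand with roles in joint and heart valve formation, was at 4.17 to 5.68 TPM in all 6 ventricles, with a log2 fold change of −0.09 (SE 0.19) that was 0.12 without Cre negative replicate 1. The remaining tested ligands were at or below 3.13 TPM. Wnt2, a ligand of heart and lung development, was at 1.47, 0.79 and 0.91 TPM in the Cre negative and at 3.11, 0.94 and 1.86 TPM in the Cre positive ventricles, and its log2 fold change was 0.60 (SE 0.50), or 1.001 without Cre negative replicate 1 and 0.05 without Cre positive replicate 1. Wnt2b and Wnt10b, both canonical, had log2 fold changes of 0.06 (SE 0.44) and 0.40 (SE 0.43), with ranges of −0.18 to 0.63 and 0.15 to 0.68 when 1 ventricle was left out. Wnt9b, which acts upstream of Wnt4 in the kidney, had the largest fold change of any member, and was picked out after its values were seen. It was at 122.0, 26.5 and 44.7 normalized counts in the Cre negative and at 11.9, 14.8 and 63.5 in the Cre positive ventricles. Its log2 fold change of −1.09 (SE 0.76, edgeR adjusted p = 0.720) became −0.25 without Cre negative replicate 1 and −2.25 without Cre positive replicate 3. Normalized counts are counts scaled by edgeR's TMM factors to the mean library size of 14264187. The 8 ligands not tested were Wnt1, Wnt6, Wnt7a, Wnt7b, Wnt8a, Wnt8b, Wnt10a and Wnt16, with 0 to 17 counts in a ventricle. Wnt6 had the 17 counts, in Cre positive replicate 3, and the others had no more than 7.

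The receptors were the steadiest class. Of 11 tested, 7 were higher and 4 lower in the Cre positive ventricles, the median log2 fold change was 0.03, and 10 of 11 had a 95% interval within a 2-fold change. Lrp5 (gene 16973, chr19:3584825-3686585), the coreceptor with the highest level, was at 41.97, 49.09 and 47.66 TPM in the Cre negative and at 43.45, 53.55 and 47.52 TPM in the Cre positive ventricles. Its log2 fold change was −0.06 (SE 0.09, 95% interval −0.26 to 0.14, edgeR adjusted p = 0.841). Lrp6, the other coreceptor, was at 11.71 to 14.95 TPM, with a log2 fold change of −0.02 (SE 0.09). Neither coreceptor differed by more than the spread between ventricles.

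Fzd2 (gene 57265, chr11:102604431-102608058), a Frizzled that takes both canonical and Wnt5a signals, was the receptor with the second highest level. Its normalized count was 505, 674 and 655 in Cre negative replicates 1, 2 and 3 and 747, 691 and 688 in Cre positive replicates 1, 2 and 3. The groups did not overlap, although 688 and 674 are close. The log2 fold change was 0.21 (SE 0.12, 95% interval −0.07 to 0.49, edgeR adjusted p = 0.714), and p was 0.1 by exact two-sided permutation, the smallest that 3 against 3 allows. Without Cre negative replicate 1 the log2 fold change was 0.09. Fzd2 and Axin1 were the members without overlap between genotypes, both higher in the Cre positive ventricles. That is 2 of 38 members, where 7.55% of all genes were higher without overlap and 6.85% lower. Fzd1 (gene 14362, chr5:4753839-4758216), a canonical receptor, was at 14.93, 18.31 and 17.05 TPM and at 22.10, 19.35 and 19.03 TPM. On normalized counts its groups overlapped (565 to 623 against 606 to 747) and the log2 fold change was 0.16 (SE 0.11, edgeR adjusted p = 0.717), or 0.05 without Cre positive replicate 1.

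Fzd4, the endothelial receptor that also binds norrin, and Fzd6, a receptor of planar polarity, were at similar levels of 11.51 to 15.18 TPM and 10.77 to 13.91 TPM. Their log2 fold changes were 0.00 (SE 0.10) and 0.03 (SE 0.11), and both intervals lay within 0.30 on the log2 scale. Fzd7, a receptor used by stem cells of several tissues, was at 6.12, 7.20 and 6.46 TPM and at 8.15, 7.63 and 8.69 TPM, with a log2 fold change of 0.19 (SE 0.11, edgeR adjusted p = 0.714). On normalized counts 263 in Cre positive replicate 2 was below 270 in Cre negative replicate 2, so its groups overlapped. Fzd8 and Fzd5 were lowest in Cre negative replicate 1, at 4.70 and 2.26 TPM, and ranged up to 8.77 and 4.56 TPM in the others. Fzd9 and Fzd3 were at or below 1.65 TPM, and Fzd10, with 0 to 5 counts, was not tested.

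**Figure D3:**
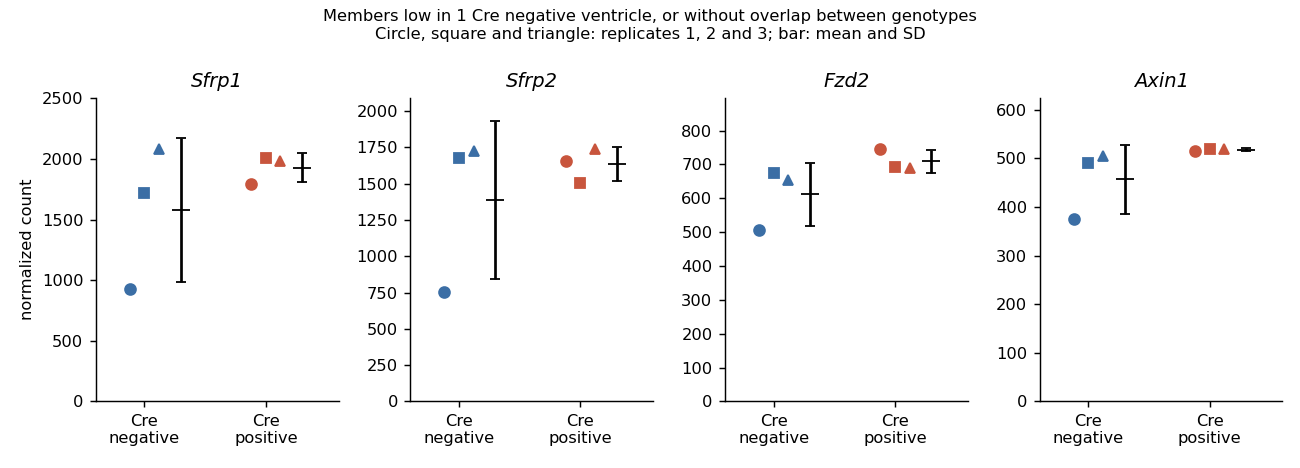
Normalized counts (y axis from 0) of Sfrp1, Sfrp2, Fzd2 and Axin1 in the 3 Cre negative (blue) and 3 Cre positive (red) ventricles, with the mean and SD of each group in black. In each gene Cre negative replicate 1 (circle) is the lowest value, and the other 5 lie closer together.

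Of the secreted antagonists, 7 of 9 were tested, 5 higher and 2 lower in the Cre positive ventricles. Sfrp2 (gene 20319, chr3:83765750-83774314) and Sfrp1 (gene 20377, chr8:23411383-23449632) encode soluble proteins with a Frizzled-like domain that bind Wnt ligands, and both are known products of cardiac fibroblasts. Sfrp2 was at 47.92, 118.20 and 120.70 TPM in Cre negative replicates 1, 2 and 3 and at 115.30, 113.30 and 126.30 TPM in the Cre positive ventricles. Sfrp1 was at 24.55, 50.65 and 61.59 TPM and at 53.11, 64.20 and 61.50 TPM. Both were thus about level in 5 ventricles of either genotype and low in Cre negative replicate 1. Their log2 fold changes of 0.24 (SE 0.28, edgeR adjusted p = 0.807) and 0.29 (SE 0.26, edgeR adjusted p = 0.755) became −0.06 and 0.02 when that ventricle was left out, and 0.42 and 0.54 without Cre negative replicate 3. The same ventricle had the lowest values of 5 of the 8 fibroblast markers (given above) and the lowest summed TPM of the 4 myofibroblast markers (823.8 against 1334 to 1919) and of the 5 smooth muscle and mural markers (292.8 against 520.7 to 635.9). Its sums were also lowest for the 6 macrophage markers (980.7 against 1323 to 1583) and the 6 endothelial markers (507.4 against 606.7 to 700.4). It had the highest of the 8 cardiomyocyte markers (61840 against 45790 to 51300) and of the 5 neutrophil markers (412.9 against 48.38 to 156.3). Among the latter S100a8, S100a9 and Retnlg carried the sum, while Csf3r was lowest there, at 12.29 TPM against 17.38 to 25.95. Single markers also went against their sums elsewhere, since Myl2 was not highest in this ventricle and Kdr, Mrc1 and Rgs5 were not lowest. All of these are by TPM. On normalized counts Dpt, Pecam1, Emcn, Egfl7, C1qa and Cd14 were not lowest in this ventricle either. No marker of these lists was at 0 in any ventricle. The part of these cell types in the antagonist values was not tested.

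Dkk3 (gene 50781, chr7:112116019-112159482), a divergent Dickkopf that does not block Lrp5 and Lrp6 in the manner of Dkk1, was at 40.25, 34.28 and 23.31 TPM in the Cre negative and at 47.21, 26.54 and 40.06 TPM in the Cre positive ventricles. The groups overlapped, and the log2 fold change was 0.10 (SE 0.29, edgeR adjusted p = 0.931), with −0.13 to 0.34 when 1 ventricle was left out. Dkk2, a ligand of Lrp6, was at 0.41, 1.37 and 1.79 TPM and at 1.49, 2.27 and 1.54 TPM, so that it too was lowest in Cre negative replicate 1, and its log2 fold change of 0.48 (SE 0.44) was 0.10 without it. Sfrp5 showed the opposite, with 81.1 normalized counts in Cre negative replicate 1 and 9.71 to 20.5 in the other 5. Its log2 fold change went from −0.93 (SE 0.76) to 0.56 without that ventricle. Sfrp4 was at 2.15, 2.89 and 1.47 TPM and at 6.05, 1.14 and 4.04 TPM, with both the lowest and the highest value in Cre positive ventricles and a log2 fold change of 0.69 (SE 0.58) that was 0.11 without Cre positive replicate 1 and 1.13 without Cre positive replicate 2. Wif1 was at 2.16, 3.50 and 3.54 TPM and at 2.17, 1.88 and 3.08 TPM, with a log2 fold change of −0.48 (SE 0.28, edgeR adjusted p = 0.714) that was −0.64 without Cre negative replicate 1. Dkk1, with 0 to 3 counts, and Notum, an enzyme that removes the Wnt lipid, with 1 to 13 counts, were not tested.

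In the R-spondin axis, 3 of 6 tested members were higher and 3 lower. Lgr6 (gene 329252, chr1:134983300-135105374) and Lgr4 (gene 107515, chr2:109917647-110014257), receptors for R-spondins, were the most abundant. Lgr6 had 595, 598 and 539 normalized counts in the Cre negative and 471, 491 and 555 in the Cre positive ventricles. Cre positive replicate 3 alone lay within the range of the siblings, and the log2 fold change was −0.19 (SE 0.10, 95% interval −0.42 to 0.04, edgeR adjusted p = 0.714). Lgr4 was at 10.63, 10.92 and 9.40 TPM and at 10.53, 10.67 and 10.36 TPM, and its log2 fold change was −0.09 (SE 0.11, 95% interval −0.35 to 0.17), or −0.02 without Cre negative replicate 1 and −0.18 without Cre negative replicate 3. Lgr5, the stem cell receptor of the same family, was far lower, at 0.19 to 0.86 TPM, and its log2 fold change of 0.11 (SE 0.69) ran from −0.28 to 1.17 when 1 ventricle was left out.

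Rspo1 (gene 192199, chr4:124986401-125009102), the R-spondin with the highest level, was at 6.64, 2.13 and 1.34 TPM in Cre negative replicates 1, 2 and 3 and at 7.46, 3.26 and 4.62 TPM in Cre positive replicates 1, 2 and 3. Cre negative replicate 1 held a level near the highest Cre positive one and the other 2 Cre negative ventricles lay below all Cre positive ventricles. The log2 fold change was 0.47 (SE 0.62, 95% interval −0.98 to 1.92, edgeR adjusted p = 0.826). Without Cre negative replicate 1 it was 1.5 (edgeR adjusted p = 0.729, and 0.00881 before adjustment). It was 0.05 without Cre positive replicate 1, 0.07 without Cre negative replicate 3 and 0.20 without Cre negative replicate 2, so the value of Rspo1 depended on which ventricles were included. Rspo3, with 4 to 19 counts, had a log2 fold change of 0.16 (SE 0.69), with −0.72 to 0.55 when 1 ventricle was left out. Znrf3, one of the ubiquitin ligases that clear Frizzled, was at 1.45 to 1.92 TPM with a log2 fold change of −0.19 (SE 0.17) that was −0.10 without Cre negative replicate 1. Rspo2 and Rnf43 had at most 2 and 4 counts in a ventricle and were not tested.

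Among the intracellular members, Tcf7l1 (gene 21415, chr6:72626371-72789045), a TCF that mainly represses, had the highest level. It was at 28.88, 39.83 and 31.80 TPM in the Cre negative and at 33.43, 34.25 and 33.94 TPM in the Cre positive ventricles, with a log2 fold change of −0.10 (SE 0.11, edgeR adjusted p = 0.785) that ran from −0.16 to 0.015 when 1 ventricle was left out. Tcf7l2 (gene 21416, chr19:55741797-55933659) was at 7.14, 9.42 and 8.92 TPM and at 9.78, 10.33 and 9.91 TPM. Its normalized counts overlapped (233 to 280 against 275 to 289) and the log2 fold change was 0.12 (SE 0.11, edgeR adjusted p = 0.759), or 0.04 without Cre negative replicate 1. Axin1 (gene 12005, chr17:26131217-26195811), the scaffold of the destruction complex, had 375, 490 and 505 normalized counts in the Cre negative and 515, 518 and 520 in the Cre positive ventricles. The groups did not overlap. The log2 fold change was 0.18 (SE 0.12, edgeR adjusted p = 0.719; exact two-sided permutation p = 0.1), and 0.05 without Cre negative replicate 1.

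Axin2, which beta-catenin itself induces and which therefore serves as a readout of canonical signalling, was at 3.24, 1.83 and 1.76 TPM and at 3.17, 1.24 and 2.57 TPM. The groups overlapped, with a log2 fold change of −0.10 (SE 0.43, 95% interval −1.11 to 0.91, edgeR adjusted p = 0.953) that ran from −0.44 to 0.33 when 1 ventricle was left out. Tcf7, a TCF of T cells among others, had 23.5, 52.0 and 32.0 normalized counts in the Cre negative and 40.8, 39.7 and 78.1 in the Cre positive ventricles. Its log2 fold change was 0.55 (SE 0.39, edgeR adjusted p = 0.722), with 0.16 to 0.92 when 1 ventricle was left out. The 5 T cell markers summed to 2.74, 8.45 and 4.95 TPM and to 6.42, 4.48 and 13.68 TPM. This sum and Tcf7 were both highest in Cre positive replicate 3 and both lowest in Cre negative replicate 1. Single markers went against the sum, since only Lck was lowest in Cre negative replicate 1. Cd3e was highest in Cre positive replicate 1, at 1.78 TPM against 1.55 in Cre positive replicate 3. Of these markers Cd3d was at 0 in 1 ventricle, and their part in the level of Tcf7 was not tested. Lef1, with 4 to 14 counts, was not tested.

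The members varied more between ventricles than most genes did. The highest normalized count was a median of 1.87 times the lowest for the members and 1.43 times for all genes. It was above 2 times in 19 members (18.8% of all genes) and above 3 times in 11 (7.37% of all genes). Of those 11, Wnt4 averaged 385.4 normalized counts and the others 74.23 or fewer. Much of the spread ran across the genotypes. Wnt4 had its 3 highest values in Cre negative replicate 1 and Cre positive replicates 1 and 3. This pattern was noticed in the values and then counted in the rest, so the count is a description only. It was found in 7 of the 37 other members (18.9%) and in 5.62% of all genes. With Wnt4 they were the ligands Wnt9a and Wnt2, the antagonists Dkk3 and Sfrp5, Rspo1, Lgr5 and Axin2. Wnt4 had 621, 597 and 481 normalized counts in those 3 ventricles and 180 to 219 in the others, and Rspo1 had 102.0, 103.0 and 60.5 against 18.5 to 41.5. Axin2 had 118.0, 102.0 and 77.1 against 36.0 to 57.9, and Dkk3 had 1160, 1214 and 983 against 601 to 888. In Wnt9a the order was the same but the gap was slight, with 117 in Cre positive replicate 3 and 113 in Cre positive replicate 2.

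The 6 epicardial and mesothelial markers (Msln, Upk3b, Upk1b, Wt1, Krt19 and Lrrn4), which mark the cell layer on the surface of the heart, varied in a like manner as a sum. They summed to 135.1, 60.46 and 35.01 TPM in Cre negative replicates 1, 2 and 3 and to 180.7, 92.31 and 110.8 TPM in Cre positive replicates 1, 2 and 3. The 3 ventricles with the highest sums were those in which Wnt4 and the 7 other members were highest. Msln was the exception among the 6 markers, with 222 normalized counts in Cre positive replicate 2 and 214 in Cre positive replicate 3. The neutrophil markers had the same 3 highest ventricles, with 412.9, 156.3 and 127.7 TPM against 48.38 to 85.86 in the others. This held for the sum and for S100a8, S100a9 and Retnlg, and not for Csf3r or Cxcr2. All 6 epicardial and mesothelial markers were higher in the Cre positive ventricles by the fitted values and none was called. Their median log2 fold change was 0.64 (adjusted p from 0.717 to 0.818, edgeR), and 1.42 without Cre negative replicate 1. Without that ventricle their edgeR p ran from 0.00153 to 0.0238 before adjustment and from 0.725 to 0.729 after it, so none was called. No marker of this list was at 0 in any ventricle. The parts of the surface layer and of neutrophils in the values of these members were not tested.

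**Figure D4:**
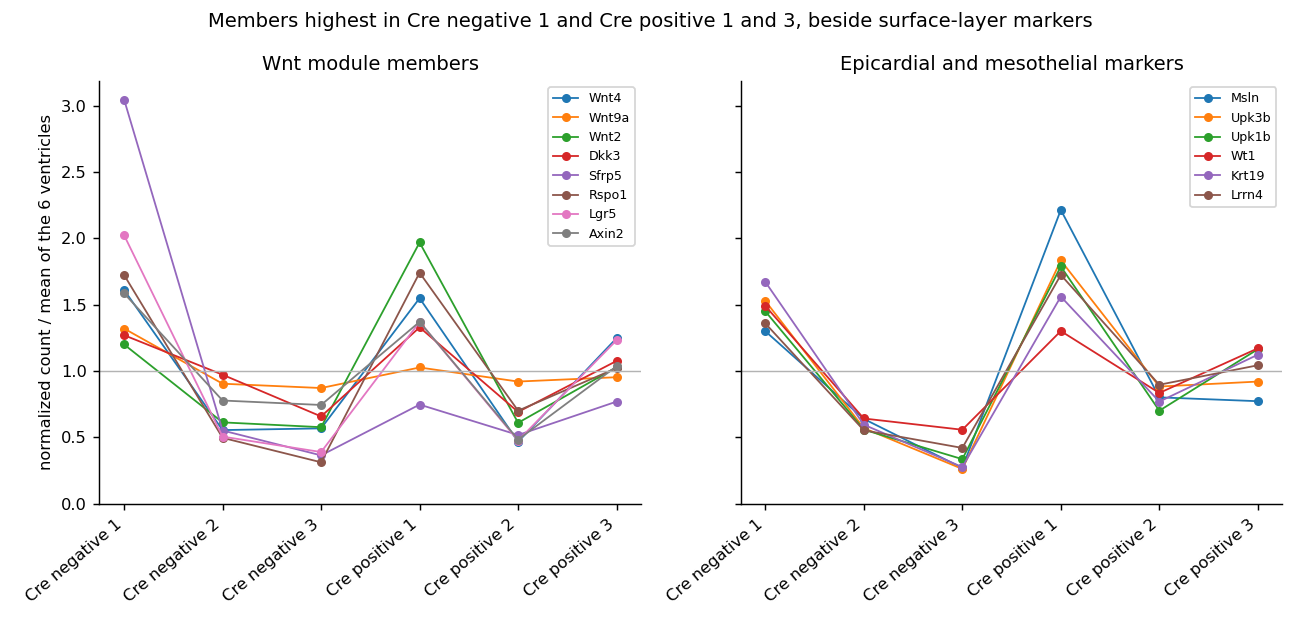
Normalized counts divided by the gene's mean over the 6 ventricles (y axis), for the 8 members highest in Cre negative replicate 1 and Cre positive replicates 1 and 3 (left) and for the 6 epicardial and mesothelial markers (right). Lines join the values of a gene and imply no order of the ventricles.

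When Cre negative replicate 1 was left out, the log2 fold change of Rspo1 went from 0.47 to 1.5, of Lgr5 from 0.11 to 1.17, of Wnt4 from 0.26 to 0.95 and of Sfrp5 from −0.93 to 0.56. This ventricle was the highest of the 6 in 10 members and the lowest in 11, and among all genes it was the highest in 30.8% and the lowest in 32.1%. Without it Axin2 went from −0.10 to 0.33 (edgeR adjusted p = 0.900). Receptors moved less, with Fzd8 (−0.08 to −0.27) and Fzd5 (0.18 to −0.02) the most.

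**Figure D5:**
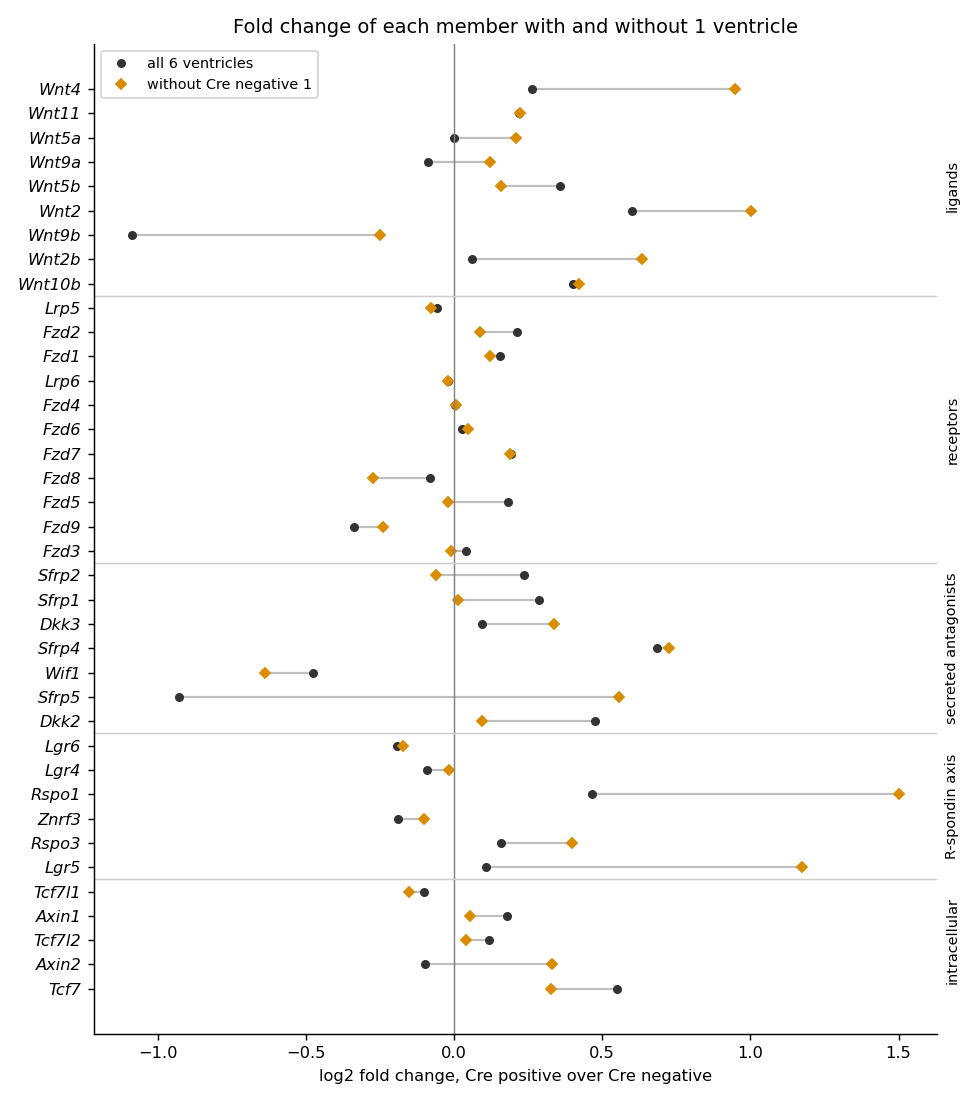
Log2 fold change (x axis, Cre positive over Cre negative, edgeR) of each tested member with all 6 ventricles (grey circles) and without Cre negative replicate 1 (orange diamonds), joined by a line. Rspo1, Sfrp5 and Lgr5 have the longest lines, and most receptors hardly move.

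The rest of the pathway was followed with 4 lists of genes outside the module, and none of the genes tested in them was called by edgeR's test. Among 12 genes for Wnt secretion and other extracellular regulators, 8 were tested, 4 higher and 4 lower, with a median log2 fold change of 0.01. Without Cre negative replicate 1, 6 were higher and the median was 0.04. Wls, the carrier that brings Wnt ligands to the cell surface, had 1282, 1358 and 1350 normalized counts in the Cre negative and 1585, 1504 and 1435 in the Cre positive ventricles. Its groups did not overlap, and its log2 fold change was 0.18 (SE 0.08, edgeR adjusted p = 0.714). Porcn, the enzyme that attaches the lipid to Wnt ligands, had a log2 fold change of −0.10 (SE 0.19). Of 13 genes for noncanonical receptors and planar polarity, 10 were higher and 3 lower with a median of 0.12, which was 0.09 with 8 higher when Cre negative replicate 1 was left out. Ryk, Ptk7, Vangl2 and Daam1 were higher without overlap, 4 of 13 where 7.55% of all genes were, with log2 fold changes of 0.12, 0.27, 0.44 and 0.11. Without that ventricle, those of Ptk7 and Vangl2 were 0.09 and 0.19, and those of Ryk and Daam1 were 0.12 and 0.13.

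Of 22 genes for the destruction complex and its nuclear partners, 14 were higher and 8 lower with a median of 0.04. Ctnnb1, which encodes beta-catenin, had 5201, 5919 and 6450 normalized counts in the Cre negative and 5777, 6810 and 6328 in the Cre positive ventricles, and its log2 fold change was 0.11 (SE 0.12, edgeR adjusted p = 0.794), or 0.02 without Cre negative replicate 1. Tle3, a corepressor that binds TCF factors, was the one gene of these 22 with an unadjusted p under 0.05, where 5.83% of all genes had one. It had 719, 826 and 782 normalized counts in the Cre negative and 938, 894 and 975 in the Cre positive ventricles, a log2 fold change of 0.27 (SE 0.09, edgeR adjusted p = 0.714).

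Of 12 genes known as targets of beta-catenin in some tissues, 10 were tested, 7 higher and 3 lower with a median of 0.25, or 0.12 without Cre negative replicate 1. Without adjustment, 2 were higher and 1 was lower with p under 0.05, where 2.85% of all genes were higher and 2.98% lower. Cd44, an adhesion receptor for hyaluronan, had 1192, 1334 and 1410 normalized counts in the Cre negative and 1822, 1638 and 1666 in the Cre positive ventricles, a log2 fold change of 0.38 (SE 0.10, edgeR adjusted p = 0.714, and 0.00461 before adjustment). Myc, a growth regulator, had 436, 363 and 469 and 537, 524 and 512, a log2 fold change of 0.31 (SE 0.11, edgeR adjusted p = 0.714). Tbx3, a transcription factor of the conduction system, had 339, 197 and 210 and 144, 145 and 179, a log2 fold change of −0.67 (SE 0.23, edgeR adjusted p = 0.714) that was −0.39 without Cre negative replicate 1. All 3 genes answer to other pathways too. The feedback inhibitors Nkd1 and Nkd2, which like Axin2 are induced by beta-catenin, had log2 fold changes of −0.23 (SE 0.21) and 0.25 (SE 0.16), or −0.10 and 0.10 without Cre negative replicate 1.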

How the data were processed

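RNA was extracted with TRIzol from left ventricles and sequenced by BGI Americas, per the labels. The submitters' processing notes name Bowtie2 2.2.5, RSEM 1.2.12 and GRCm38.p6. For 17556 genes the authors deposited estimated counts, FPKM and TPM. The deposited FPKM values were used in no result, the deposited TPM values served for levels, and a deposited genotype comparison (log2 fold change, p-value and q-value) was not used. Estimated counts were rounded and tested in R 4.3.3 with edgeR 4.0.16 (filterByExpr, minimum count 10 and total 15, TMM, quasi-likelihood test, no covariate, Benjamini-Hochberg adjustment, threshold 0.05). Alternatives were DESeq2 1.42.0, limma 3.58.1 on log2(TPM + pseudocount), a replicate block, no filter and leaving out each ventricle. The publication does not describe these samples, so the design came from the labels. The symbol rule, the lists and the tests were chosen with earlier results of these data known. The rule for named genes took the 3 of each role with the highest mean TPM, members without overlap at a mean of at least 50 normalized counts or with unadjusted p under 0.05, and the 4 with the largest change at that mean. Other members were named to account for all. Positions and promoters are from RefSeq (GRCm38.p6), where all 52 members were found. The limit at 0 counts covers counting error only.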

Additional observations from a re-analysis of the deposited data

How the results depend on the processing

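None of the members was called in any of the 12 alternatives, and the smallest adjusted p of a member was 0.509 (Sfrp1 without Cre negative replicate 3). The number of all genes called was 1, against 5 with DESeq2's Wald test, 2 with limma on log2(TPM + 1), 2 with limma on log2(TPM + 0.1) and 0 with the replicate block, and from 0 to 2 when 1 ventricle was left out (2 without Cre negative replicate 1, and 0 without Cre negative replicate 3, Cre positive replicate 1 or Cre positive replicate 3). The median log2 fold change of the members was 0.23 with limma on log2(TPM + 0.1), where the median of all genes was itself 0.12, and from 0.01 to 0.17 when 1 ventricle was left out. Of the 16 named genes, 9 kept their sign in all 12 alternatives and 7 did not, all with adjusted p far above the threshold. Wnt5a was −0.009 with DESeq2 size factors and −0.009 with DESeq2's Wald test. With limma on log2(TPM + 1) and log2(TPM + 0.1), Lrp5 was 0.056 and 0.057, Lgr4 was 0.028 and 0.031, and Tcf7l1 was 0.028 and 0.029. With 1 ventricle left out, log2 fold changes ran from −0.14 to 0.21 for Wnt5a, from −0.061 to 0.422 for Sfrp2, from −0.161 to 0.015 for Tcf7l1, from −0.13 to 0.34 for Dkk3 and from −0.083 to 0.947 for Wnt4. Unadjusted p under 0.05 was found for Rspo1 without Cre negative replicate 1, for Sfrp4 without Cre positive replicate 2 (log2 fold change 1.13) and for Wnt9b (−2.25) and Lgr6 (−0.27) without Cre positive replicate 3. The causes of these shifts were not tested. Deviations of same-numbered samples correlated at 0.354, 0.0726 and −0.0318, and those of samples with different numbers at −0.368 to 0.354. With so few ventricles this cannot decide whether the replicate numbers pair them. With the replicate block 24 members were higher. Depth limits the 14 members that were not tested.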
